A study of Mus musculus with 30 samples.

Results

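The 39 interferon-stimulated genes described here were taken from a fixed list of gene symbols and followed across 30 tumors of 5 MCA-induced fibrosarcoma lines. MCA (3-methylcholanthrene) is a chemical carcinogen, and each line was derived from a single mouse sarcoma and then grown again in C57BL/6 mice. Every symbol matched 1 of the 48440 genes in the table of read counts, and all 39 passed the filter on low counts that 16862 genes passed. Genes of MHC class I and of the Ifitm family were not on the list. Tumor suspensions were depleted of CD45+ cells, the hematopoietic fraction, with beads before bulk RNA was sequenced, and each tumor held between 27745104 and 46537062 counted reads.

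The groups were the lines MCA943 (4 tumors), MCA948 (8), MCA969 (8), MCA970 (6) and MCA972 (4). All tumors shared the C57BL/6 background. The mouse strain was labelled Ncr1Cre for MCA943 and Ncr1Cre R26DTA for the other 4 lines. In the latter genotype, Cre expressed from the gene of the NK receptor NKp46 switches on diphtheria toxin A, which removes NKp46+ cells. By the study's description the genotype is that of the mouse in which the primary tumor arose, and the recipients were C57BL/6. Since only MCA943 came from an Ncr1Cre mouse, this genotype and that line cannot be told apart. Tumors of MCA948, MCA970 and MCA972 were labelled sensitive to NK cells. Tumors of MCA943 and 6 of the 8 MCA969 tumors were labelled non-sensitive, and the MCA969 tumors W-1D and W-2D carried the opposite label to the rest of their line. Each line stood for 1 primary tumor, so its tumors measured the spread within that line and not between lines of one kind. Titles carried the letter W or a and an animal code, and 1 title had no letter; what the letters stand for was not given in the sources used here.

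Cells sense type I interferons through the receptor IFNAR and interferon-gamma through IFNGR. The first leads to a complex holding STAT2 and IRF9, which binds the interferon-stimulated response element (ISRE), and the second acts largely through the gamma-activated sequence (GAS). The genes switched on in this way block viral replication at many steps, and several of them, such as Irf7, Stat2 and Usp18, in turn raise or restrain the response itself. In tumors, interferon can act on the malignant cells and on the cells around them, and in bulk RNA fewer cells of a type and less RNA per cell cannot be told apart.

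Promoter sequences of the members are shown first because they hold the letters through which the pathway is known to act. RefSeq promoters (GRCm38.p6) were given for 28 of the 39 genes, in 34 windows. In the 250 bases before the start site, the ISRE, searched as GAAANNGAAA on both strands (TTTCNNTTTC when read on the other strand), was found in 14 of the 28 genes (50%) against 936 of 27025 genes in the whole table (3.46%). The GAS, searched as TTCNNNGAA, which reads the same on both strands, was found in 8 of the 28 genes (28.6%) against 2197 of 27025 (8.13%), and 4 member genes held both. All 5 interferon-gamma-induced GTPase genes in the promoter table held an ISRE, as did 3 of 4 Ifit genes and 2 of 4 OAS genes, while 1 of 4 signalling factors and neither of the 2 nucleic acid sensors did. These shares describe letters in a fixed window and not binding. Members of the list not in the promoter table were Dhx58, Ifi27, Iigp1, Mx1, Mx2, Oas2, Parp14, Parp9, Rtp4, Usp18 and Zbp1.

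Upstream bases of 7 genes follow, each written 5′ to 3′ on the strand of its gene and ending at the base before the start, with the ISRE matches in capitals. Ifit3b, Irgm1 and Stat2 are those with an ISRE among the signalling factors and the widest and narrowest members of each role, and Ifit1, Ifit3, Isg15 and Oas3 were added after the matches were seen, to set neighbouring Ifit genes side by side and to show overlapping and single matches.
Stat2 (chr10:128270248-128270497, forward strand): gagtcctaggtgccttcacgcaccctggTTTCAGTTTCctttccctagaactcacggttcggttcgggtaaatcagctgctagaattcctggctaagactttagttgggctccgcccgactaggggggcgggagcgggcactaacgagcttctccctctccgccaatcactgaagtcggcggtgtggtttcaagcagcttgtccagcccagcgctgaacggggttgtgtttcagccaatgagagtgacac
Ifit1 (chr19:34640639-34640888, forward strand): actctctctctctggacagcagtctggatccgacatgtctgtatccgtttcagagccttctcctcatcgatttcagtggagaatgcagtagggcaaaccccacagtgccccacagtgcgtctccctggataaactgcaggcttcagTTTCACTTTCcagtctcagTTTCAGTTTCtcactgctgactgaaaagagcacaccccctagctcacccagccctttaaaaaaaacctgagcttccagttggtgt
Ifit3 (chr19:34583279-34583528, forward strand): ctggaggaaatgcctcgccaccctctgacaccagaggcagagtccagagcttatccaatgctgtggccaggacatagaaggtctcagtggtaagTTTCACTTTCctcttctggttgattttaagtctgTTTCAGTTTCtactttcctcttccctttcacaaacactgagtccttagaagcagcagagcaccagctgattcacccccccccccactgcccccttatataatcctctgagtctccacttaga
Ifit3b (chr19:34607707-34607956, forward strand): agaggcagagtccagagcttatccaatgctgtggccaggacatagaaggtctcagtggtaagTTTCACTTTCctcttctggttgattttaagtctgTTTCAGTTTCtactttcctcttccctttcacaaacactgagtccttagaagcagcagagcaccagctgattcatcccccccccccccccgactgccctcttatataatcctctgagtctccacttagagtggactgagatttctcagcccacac
Oas3 (chr5:120777660-120777909, reverse strand): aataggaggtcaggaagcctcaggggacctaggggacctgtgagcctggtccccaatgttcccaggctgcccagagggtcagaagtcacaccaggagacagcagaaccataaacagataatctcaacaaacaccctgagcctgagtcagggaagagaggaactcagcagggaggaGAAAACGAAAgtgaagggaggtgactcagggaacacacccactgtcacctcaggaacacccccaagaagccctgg
Isg15 (chr4:156200819-156201068, reverse strand): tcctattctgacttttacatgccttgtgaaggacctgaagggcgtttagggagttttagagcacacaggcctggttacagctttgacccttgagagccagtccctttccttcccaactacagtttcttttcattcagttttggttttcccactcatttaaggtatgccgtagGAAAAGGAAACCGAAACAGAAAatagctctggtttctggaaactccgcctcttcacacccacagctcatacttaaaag
Irgm1 (chr11:48871421-48871670, reverse strand): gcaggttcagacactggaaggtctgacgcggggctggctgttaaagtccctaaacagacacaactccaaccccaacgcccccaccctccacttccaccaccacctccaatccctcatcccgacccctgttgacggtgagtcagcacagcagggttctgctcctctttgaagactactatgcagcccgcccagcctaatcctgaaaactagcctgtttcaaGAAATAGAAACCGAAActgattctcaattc
In Isg15, 3 matches overlapped and began 78, 72 and 66 bases before the start, and in Irgm1 a pair of overlapping matches began 30 and 24 bases before it. Ifit3 and Ifit3b, neighbouring genes on chromosome 19, each held 2 separate matches with the same spacing: shifted by 32 bases, 188 of 218 upstream bases (86.2%) were identical. The single match of Stat2 lay far out, beginning 222 bases before the start, and that of Oas3 began 75 bases before it.

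MCA943 tumors carried the highest mean level of all 39 interferon-stimulated genes among the 5 lines, and MCA948 tumors the lowest of 36. The exceptions were Ifit2, lowest in MCA969, Isg20, lowest in MCA970, and Trim25, lowest in MCA972. For 24 members, all 4 MCA943 tumors lay above all 26 tumors of the other lines, a pattern that 9.76% of all genes tested showed. For 6 members, all 8 MCA948 tumors lay below all others, against 4.80% of all genes. As a summary, the mean log2 CPM of the 39 genes (CPM, counts scaled to the library size, with TMM normalisation between tumors) is called the interferon score. It was 6.13 ± 0.54 (SD, n = 4) in MCA943, 4.09 ± 0.36 (n = 6) in MCA970, 3.85 ± 0.18 (n = 4) in MCA972, 3.21 ± 0.70 (n = 8) in MCA969 and 1.72 ± 0.57 (n = 8) in MCA948. All 4 MCA943 scores, from 5.43 to 6.74, lay above every other tumor, whose highest was 4.75. In MCA948, 6 of 8 scores lay below every tumor of another line. Scores of MCA970 (3.65 to 4.75), MCA972 (3.59 to 3.97) and MCA969 (1.93 to 4.02) overlapped.

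**Figure D1:**
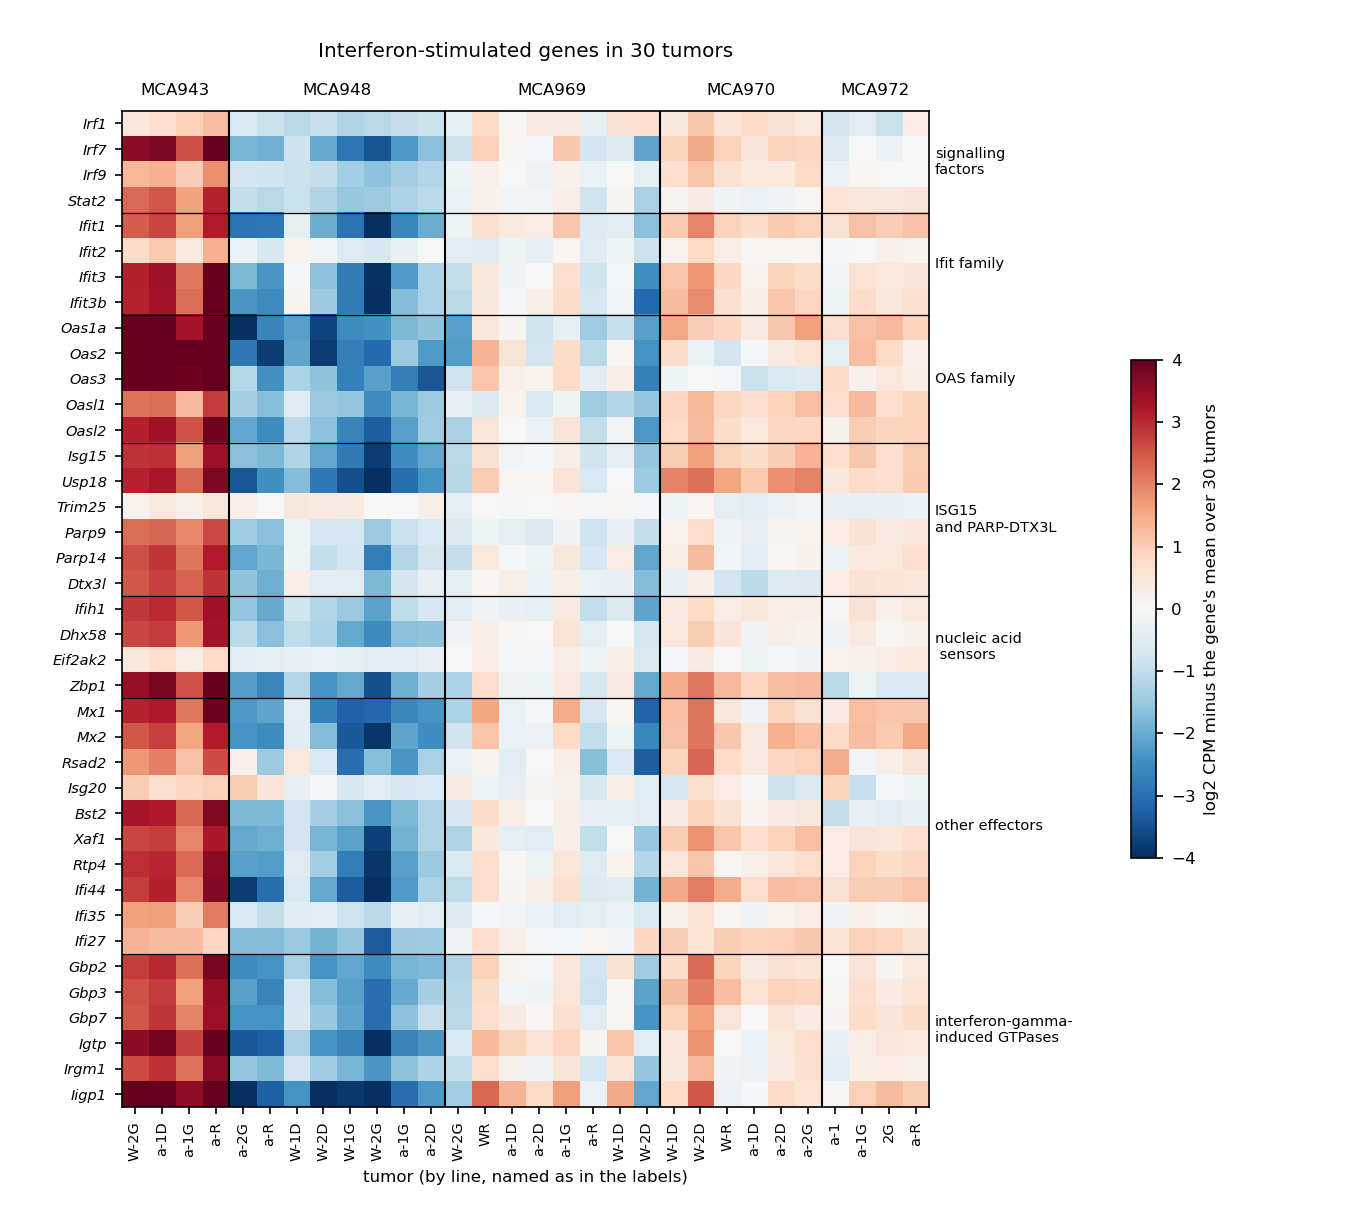
Level of the 39 interferon-stimulated genes (rows, grouped by role) in the 30 tumors (columns, by line); colour is log2 CPM minus the mean of that gene over all tumors, cut at ±4. The 4 MCA943 columns are red in nearly every row and the 8 MCA948 columns mostly blue, while Trim25, Eif2ak2, Isg20 and Ifit2 stay pale in most tumors.

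**Figure D2:**
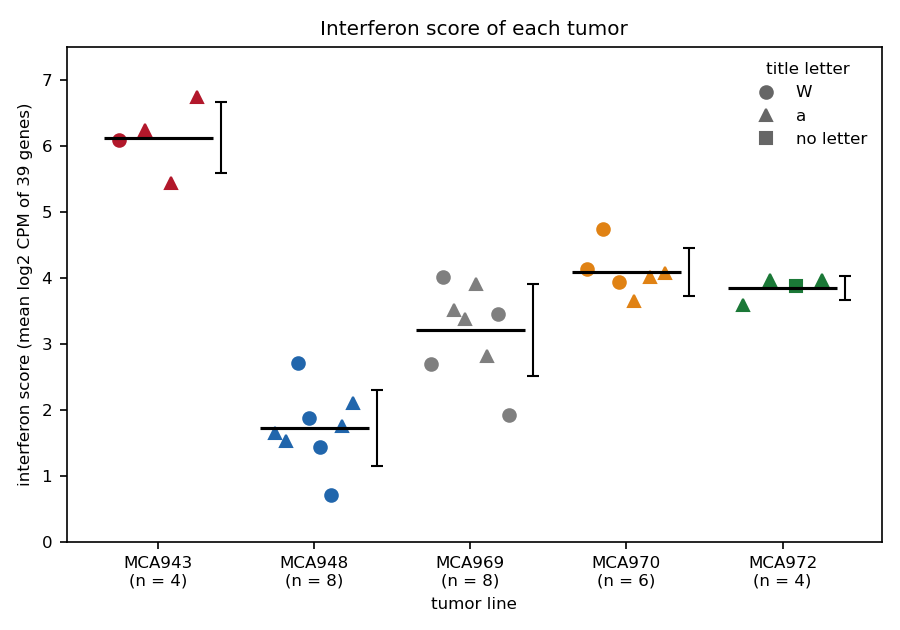
Interferon score (mean log2 CPM of 39 genes, vertical axis) of each tumor by line; each point is 1 tumor, circles have the title letter W, triangles a, the square no letter, horizontal bars are line means and the bar beside each group is ±1 SD. All 4 MCA943 tumors lie above every other tumor, and W and a tumors overlap within MCA948, MCA969 and MCA970.

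Differences between lines were tested by edgeR over all 16862 genes, and a gene was called when its adjusted p was under 0.05 and its log2 fold change at least 1 in size. Over the 5 lines together, without a fold threshold, 39 of 39 members were called, but so were 94.1% of all genes. Between MCA943 and MCA948, 36 of 39 members were higher in MCA943 and none lower, with a median log2 fold change of 4.57, when 17.7% of all genes were called higher, 11.3% lower and the median over all genes was -0.01. Against MCA969, 34 were higher in MCA943 and none lower (median 2.93), with 12.1% and 14.9% of all genes higher and lower. Against MCA970, 31 were higher and none lower (median 2.17; background 12.6% and 14.8%). Against MCA972, 33 were higher and none lower (median 2.26; background 12.2% and 13.4%). These 4 comparisons share the MCA943 tumors. All 39 estimates were above 0 in each of them.

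MCA948 stood at the other end. Compared with MCA969, 27 of 39 members were lower in MCA948 and none higher (median -1.54), and 16.8% of all genes were lower and 3.91% higher. With MCA970, 33 were lower and none higher (median -2.46; background 19.8% lower and 9.64% higher). With MCA972, 33 were lower and none higher (median -2.04; background 18.5% lower and 8.27% higher). Fewer members separated the 3 middle lines. In MCA969, 15 members were lower than in MCA970 and none higher (median -0.76), against a background of 10.7% of all genes in either direction. Only 5 were lower in MCA969 than in MCA972 and none higher (median -0.55), with 10.3% of all genes called in each direction. MCA970 and MCA972 differed in 4 members, all higher in MCA970 (median 0.17), a share near the 8.56% higher and 9.01% lower of all genes. The members with the largest negative log2 fold changes were Iigp1 and Igtp in MCA948 against MCA969 (-4.43 ± 0.59 and -3.19 ± 0.38), Usp18 and Iigp1 against MCA970 (-4.68 ± 0.38 and -4.40 ± 0.61) and Iigp1 and Oas1a against MCA972 (-4.26 ± 0.64 and -3.72 ± 0.45). In MCA969 they were Oas1a and Usp18 against MCA970 (-1.84 ± 0.37 and -1.80 ± 0.32) and Oas1a and Oasl1 against MCA972 (-1.73 ± 0.40 and -1.52 ± 0.28).

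**Figure D3:**
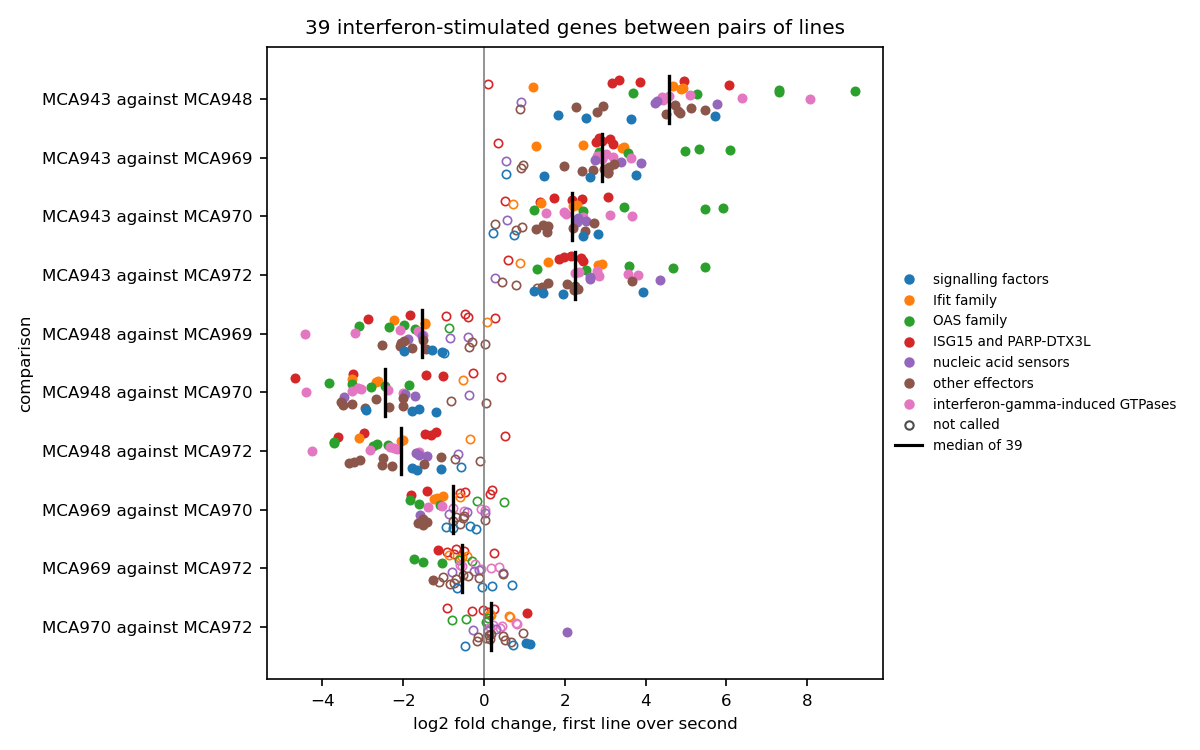
Log2 fold change (horizontal axis, first line over second) of the 39 interferon-stimulated genes in each of the 10 comparisons of 2 lines; points are genes coloured by role, filled where called and open where not, and black bars are medians. Medians run from 4.57 for MCA943 against MCA948 to 0.17 for MCA970 against MCA972, and Oas2 reaches farthest to the right in all 4 MCA943 comparisons, up to 9.18.

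Library numbers in the labels fell into 3 series separated by gaps, called sets here; the last holds a few missing numbers of its own and was kept as 1 set by choice, and the sets were not balanced over the lines. MCA943 lay wholly in a set with 6 MCA948 tumors, and within that set 37 of 39 members were higher in MCA943 (median 4.40, where 18.1% of all genes were higher and 11.4% lower). With the sets as a covariate, the counts for MCA943 were 37 against MCA948, 31 against MCA969, 15 against MCA970 and 23 against MCA972, while 18.4%, 11.3%, 12.003% and 10.7% of all genes were higher in the same fit. No set held MCA943 together with the last 3 lines, so that those estimates pass through lines shared between sets. For MCA948, the covariate left 32 members lower than in MCA970, 16 lower than in MCA972 and 11 lower than in MCA969, with 15.6%, 11.7% and 10.6% of all genes lower. Within the set that held 2 MCA948, 2 MCA969 and 6 MCA970 tumors, 32 members were lower in MCA948 than in MCA970 (median -2.79, where 14.7% of all genes were lower) and 10 lower than in MCA969 (median -1.46, where 8.86% were lower). What the sets stand for in the laboratory was not given in the sources used here.

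All 4 transcription factors of the pathway had their highest line mean in MCA943 and their lowest in MCA948, with the widest range for Irf7. Irf7, which drives expression of the type I interferon genes, measured 126, 142, 62.4 and 243 CPM in the MCA943 tumors W-2G, a-1D, a-1G and a-R. It ranged from 0.913 to 5.77 CPM in MCA948 (median 2.62), from 2.38 to 22.5 in MCA969 (median 8.59), from 15.01 to 30.1 in MCA970 (median 19.5) and from 7.23 to 10.6 in the 4 MCA972 tumors. The lowest MCA943 tumor thus held more than 2 times the Irf7 of the highest tumor of any other line, and the log2 fold changes of MCA943 ran from 2.81 ± 0.43 (SE, against MCA970, adjusted p = 2.31e-06) to 5.72 ± 0.43 (against MCA948, adjusted p = 2.48e-12). Stat2, the subunit that gives the interferon-activated complex its transactivation domain, reached 95.9, 112, 60.4 and 167 CPM in the same 4 tumors. Its levels elsewhere were 6.85 to 10.7 CPM in MCA948 (median 8.93), 8.08 to 23.6 in MCA969 (median 18.5), 16.8 to 25.1 in MCA970 (median 19.5) and 28.7, 27.2, 27.3 and 28.2 in the MCA972 tumors a-1, a-1G, 2G and a-R. MCA943 stood clear of all other lines for Stat2, and MCA972, whose 4 tumors were tight, stood above every MCA970 tumor, although the log2 fold change of MCA970 over MCA972, -0.48 ± 0.22, did not pass the test (adjusted p = 0.0803).

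Irf9, the DNA-binding subunit of the same complex, was 61.7, 65.5, 48.1 and 87.5 CPM in MCA943, 32.6 to 53.1 in MCA970 (median 38.2), 20.5 to 25.8 in MCA972, 18.9 to 28.1 in MCA969 (median 23.1) and 7.67 to 14.5 in MCA948 (median 11.6). All MCA948 tumors lay below all others for Irf9, and 1 MCA970 tumor reached into the MCA943 range. Irf1, a factor strongly induced by interferon-gamma, separated the lines least of the 4: it measured 181, 209.9, 252 and 304 CPM in MCA943 and 171 to 271 in MCA970 (median 194), and the 2 lines overlapped (0.21 ± 0.21 on the log2 scale, adjusted p = 0.392). MCA972, with 77.5, 96.1, 69.9 and 157 CPM, was nearer to MCA948 (55.6 to 84.7, median 67.7) for Irf1, and MCA969 ranged from 98.0 to 223 (median 168).

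OAS genes, which encode sensors of double-stranded RNA that make the oligoadenylates activating RNase L, gave 3 of the 4 widest ranges of line means, with Iigp1 between them. Oas2 measured 46.9, 57.4, 22.9 and 71.5 CPM in the MCA943 tumors W-2G, a-1D, a-1G and a-R. In MCA948 it lay between 0 and 0.221 CPM (0 to 11 reads a tumor, median 0.0566 CPM), so that its fold change there rests on very few reads. MCA969 tumors ranged from 0.0929 to 1.95 CPM (median 0.575), MCA970 tumors from 0.397 to 1.22 (median 0.810) and MCA972 tumors from 0.546 to 1.76. No tumor outside MCA943 reached 2 CPM of Oas2, and the log2 fold changes were 9.18 ± 0.59 against MCA948 (adjusted p = 7.42e-14), 6.08 ± 0.48 against MCA969 (1.25e-11), 5.91 ± 0.54 against MCA970 (2.25e-10) and 5.47 ± 0.62 against MCA972 (1.99e-08). With the library sets as a covariate the last 3 estimates stayed large, at 5.16, 4.25 and 4.73, but did not pass the test (adjusted p = 0.218, 0.278 and 0.274). Oas3, whose protein carries several catalytic-like domains and binds long double-stranded RNA, was 38.4, 37.2, 17.1 and 60.2 CPM in MCA943 and at most 2.43 CPM in any other tumor, and Oas1a was 34.0, 32.2, 13.6 and 52.3 CPM against at most 4.23. Differences among the middle lines were unequal within the family: Oas1a was lower in MCA969 than in MCA970 (log2 fold change -1.84 ± 0.37, adjusted p = 0.000102), while Oas3 was not called (0.50 ± 0.39, adjusted p = 0.27). Oasl1, an OAS-like protein known to restrain translation of Irf7, had the smallest range of the family: 25.3, 25.9, 13.7 and 39.04 CPM in MCA943, 9.03 to 13.98 in MCA970 (median 10.3), 8.84 to 13.5 in MCA972, 1.80 to 6.11 in MCA969 (median 3.64) and 0.947 to 3.97 in MCA948 (median 1.89). Oasl2, the other OAS-like gene, was the most abundant of the family in CPM, from 121 to 301 in MCA943 against 2.03 to 9.58 in MCA948, and was called in 9 of the 10 comparisons, MCA970 against MCA972 being the exception.

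The Ifit genes, whose products bind foreign RNA ends and block their translation, lie close together on chromosome 19 but differed in range: the line means of Ifit1, Ifit3 and Ifit3b spanned 4.98, 5.16 and 5.24 on the log2 scale and those of Ifit2 1.27. Ifit3b measured 26.7, 31.4, 14.8 and 49.4 CPM in MCA943 and 0.0676 to 3.42 in MCA948 (median 0.738), a log2 difference of 4.87 ± 0.53 (adjusted p = 3.9e-09). Its levels in MCA970 were 3.65 to 11.7 CPM (median 6.18), in MCA972 2.73 to 5.36 and in MCA969 0.310 to 5.32 (median 2.90), so that all 4 MCA943 tumors were above the rest. Ifit3b is a near copy of Ifit3, and how reads shared by such copies were divided is uncertain. Ifit2 held 45.7, 56.7, 36.5 and 73.8 CPM in MCA943, 28.5 to 47.7 in MCA970 (median 29.5), 26.6 to 31.5 in MCA972, 17.4 to 29.9 in MCA948 (median 22.8) and 15.2 to 28.7 in MCA969 (median 21.3). MCA943 and MCA970 overlapped for Ifit2, and MCA948 and MCA969 could not be separated (0.08 ± 0.14, adjusted p = 0.657). The upstream windows of Ifit3b, Ifit3 and Ifit1 printed above each hold 2 ISRE matches, and those of Ifit2 hold none in these letters. Elsewhere in the list, Irf7, Ifi44 and Oasl2 also held none, yet their line means spanned 5.72, 5.51 and 5.33. Those of Oas3 and Isg15, which held matches, spanned 7.09 and 4.98. A link between matches and range was not tested.

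Members of the ISG15 system ranged from Usp18, whose line means spanned 6.17 on the log2 scale, to Trim25, at 0.59 the narrowest of the 39 genes. Isg15, a ubiquitin-like protein attached to other proteins, was 86.0, 86.4, 36.9 and 125 CPM in MCA943, 18.9 to 36.2 in MCA970, 18.4 to 24.4 in MCA972, 3.87 to 17.5 in MCA969 and 0.778 to 4.99 in MCA948. Usp18, which removes ISG15 and dampens signalling at IFNAR, was 49.9, 56.8, 28.6 and 78.5 CPM in MCA943, 12.1 to 26.8 in MCA970 (median 21.9), 7.94 to 11.9 in MCA972, 2.07 to 11.8 in MCA969 (median 5.98) and 0.101 to 1.72 in MCA948 (median 0.711). The MCA948 tumors lay below all others for Usp18, and the difference from MCA970 was the largest of the MCA948 comparisons with that line (-4.68 ± 0.38 on the log2 scale, adjusted p = 9.31e-12). Usp18 had only 3 to 69 reads a tumor in MCA948. Trim25, a ligase for ubiquitin and ISG15, stayed between 55.5 and 102 CPM in all 30 tumors and was called in none of the 10 comparisons. Parp9 and Dtx3l, which form a complex, lie head to head on opposite strands and overlap, and both were called higher in MCA943 in all 4 comparisons, as was Parp14, another ADP-ribosyltransferase.

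Among the sensors of nucleic acid, Zbp1, which recognises Z-form nucleic acid and can start necroptosis, was 81.1, 96.6, 42.2 and 164 CPM in MCA943, 12.6 to 31.0 in MCA970 (median 17.7), 3.25 to 6.16 in MCA972, 1.67 to 11.6 in MCA969 (median 6.38) and 0.575 to 3.09 in MCA948 (median 1.58). Every MCA970 tumor held more Zbp1 than any MCA972 or MCA969 tumor, and Zbp1 gave the largest difference between MCA970 and MCA972 (2.05 ± 0.43 on the log2 scale, adjusted p = 3.09e-04). The other 3 members called there, Irf7, Usp18 and Irf1, differed by 1.14 ± 0.45 (adjusted p = 0.0385), 1.07 ± 0.40 (0.028) and 1.03 ± 0.22 (3.4e-04), and the call of Irf7 was lost in 7 of 30 fits that left out 1 tumor. Ifih1 and Dhx58, a cytosolic sensor of long double-stranded RNA and its partner, were called higher in MCA943 in all 4 comparisons, by 2.33 to 4.29 on the log2 scale. Eif2ak2, the kinase that halts translation on double-stranded RNA, was 61.5, 72.4, 53.9 and 75.8 CPM in MCA943 and 33.1 to 37.4 in MCA948 (median 34.5), with the MCA972 tumors at 49.6, 51.2, 55.8 and 60.5 and MCA969 and MCA970 medians of 44.1 and 43.4. Its differences stayed under 1 on the log2 scale (0.93 ± 0.12 against MCA948, adjusted p = 5.16e-08), so that it was never called.

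The interferon-gamma-induced GTPases, which attack the vacuoles of intracellular pathogens, were called higher in MCA943 in 6 of 6 genes in each of its 4 comparisons, and lower in MCA948 in 6 of 6 in each comparison with the middle lines. Iigp1 had the largest range of the group: 222, 258, 124 and 489 CPM in MCA943, against 0.169 to 2.13 in MCA948 (median 0.860), 2.48 to 52.0 in MCA969 (median 22.7), 9.07 to 59.4 in MCA970 (median 16.8) and 10.8 to 25.4 in MCA972. All MCA948 tumors fell below, and all MCA943 tumors above, every tumor of the middle lines, a log2 difference of 8.06 ± 0.68 between the extremes (adjusted p = 2.8e-11). Iigp1 had only 5 to 80 reads a tumor in MCA948. The log2 fold change of MCA969 was 0.03 ± 0.51 against MCA970 (adjusted p = 0.967) and 0.17 ± 0.58 against MCA972 (adjusted p = 0.825), neither of them called. Igtp was 99.7, 118, 54.4 and 193 CPM in MCA943, 5.38 to 20.8 in MCA969 (median 13.5), 7.06 to 28.8 in MCA970 (median 11.4), 6.69 to 11.7 in MCA972 and 0.304 to 3.37 in MCA948 (median 1.25), so that the MCA948 tumors lay below all others. Irgm1, a regulator of the family, was 119, 148, 87.2 and 239 CPM in MCA943, 16.4 to 48.1 in MCA970 (median 25.8), 14.3 to 23.8 in MCA972, 6.56 to 31.7 in MCA969 (median 19.9) and 3.82 to 11.3 in MCA948 (median 6.47). Irgm1, Igtp, Iigp1 and Gbp7 were among the 24 members that MCA969 and MCA970 did not separate, while Gbp2 and Gbp3 were lower in MCA969 (log2 fold changes -1.03 and -1.39). Igtp overlaps its neighbour Irgm2 on the same strand in the annotation, so reads of the 2 genes may not be fully separated.

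Of the other effectors, Ifi44, an interferon-induced cytoplasmic protein, was 53.8, 68.3, 30.4 and 101 CPM in MCA943, 12.8 to 32.97 in MCA970 (median 20.4), 12.1 to 17.5 in MCA972, 2.10 to 12.97 in MCA969 (median 7.06) and 0.237 to 5.12 in MCA948 (median 1.25). MCA943 and MCA970 touched at their edges, and MCA943 was 1.58 ± 0.48 higher on the log2 scale (adjusted p = 0.00532). Bst2 (tetherin), which holds budding virus at the cell surface, was 242, 227, 122 and 323 CPM in MCA943 and at most 46.4 CPM elsewhere, and per kilobase it had the highest mean level of the 39 genes in MCA943 (299 CPM per kb). Mx1 and Mx2, genes of the dynamin-like GTPase family, were the lowest per kilobase there, at 4.24 and 3.03 CPM per kb. Mx2 is annotated as a polymorphic pseudogene. In MCA948 the order per kilobase was led by Irf1 (16.8), Trim25 (14.997) and Bst2 (11.3), and Oas2 stood last with 0.0168 CPM per kb. Isg20, an RNA exonuclease, was 20.5, 16.2, 18.97 and 20.3 CPM in MCA943, but 1 MCA948 tumor reached 21.3 (line median 7.99) and the MCA972 tumor a-1 held 19.2, against 5.53, 9.80 and 9.30 in the other MCA972 tumors. MCA969 (6.33 to 13.4 CPM, median 10.1) and MCA970 (5.78 to 16.4, median 8.93) overlapped with both, and Isg20 was called in none of the comparisons. Ifi27 was 34.7 to 49.99 CPM in MCA943 and 28.997 to 41.3 in MCA970 but 1.89 to 7.15 in MCA948. The other effectors followed the general order with different ranges: line means of Rtp4, a chaperone of receptors, Xaf1, a proapoptotic factor, and Mx1 and Mx2 spanned 4.61 to 5.44 on the log2 scale, those of Ifi35 2.24. Rsad2 (viperin), which makes a chain-terminating nucleotide, spanned 3.11, and 2 tumors of other lines lay inside the MCA943 range: 1 MCA970 tumor reached 78.9 CPM and the MCA972 tumor a-1 43.5, against 35.3 to 94.7 in MCA943.

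The comparison of non-sensitive lines (MCA943 and MCA969) with sensitive lines (MCA948, MCA970 and MCA972) asked whether any member followed NK cell sensitivity as labelled. Of the 39 members, 0 passed in one direction each time a line of the first class was set against one of the second. Over these 6 comparisons, only 0.652% of all genes were higher and 0.225% lower in all 6. With shares this small, 0 of 39 members does not set the members apart from other genes. MCA969 lay above MCA948 and at or below MCA970 and MCA972 for most members, which placed it inside the range of the sensitive lines. With the line as the unit, an exact permutation test of 2 against 3 lines cannot go below p = 0.1, and the smallest two-sided p among the 39 members was 0.2, for Isg20 and Oas3 (39 tests, none adjusted). The difference between MCA943 and MCA969, both labelled non-sensitive, was 3.89 for Irf7 and 6.36 for Oas2 in mean log2 CPM, larger than the differences of 2.12 and 3.45 between the means of the 2 classes.

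Other genes of the pathway were taken from a list of ligands, receptors, signal transducers, sensors and related GTPases. Messenger RNA of the interferons themselves was hardly seen. Of 21 interferon genes, none reached the filter on low counts. Ifnb1 had 7, 11, 0 and 15 reads in the MCA943 tumors W-2G, a-1D, a-1G and a-R and at most 4 reads in any other tumor. Ifng had 17, 12, 0 and 10 reads in the same tumors and 15 in the MCA970 tumor W-1D, with at most 4 in the rest. The MCA943 tumor a-1G, at 0 reads of both (which allows up to 0.113 CPM), had the lowest interferon score of MCA943. That score (5.43) was still higher than in any tumor of another line. Scores of W-2G, a-1D and a-R were 6.08, 6.25 and 6.74, so the 4 tumors ranked alike by score and by Ifnb1 reads, but not by Ifng reads. The source of interferon was not tested. The receptors Ifnar1 and Ifnar2 differed by less than 1 on the log2 scale between MCA943 and each other line, but Ifngr1, the ligand-binding chain for interferon-gamma, was called higher in MCA943 in 4 of 4 comparisons: its CPM was 183, 164, 171 and 189.6 there and at most 84.4 in any other tumor. The kinase genes Jak1, Jak2 and Tyk2 were called in none of these 4 comparisons. Of 11 related GTPases tested, 11, 11, 10 and 11 were higher in MCA943 than in MCA948, MCA969, MCA970 and MCA972, none was lower, and Tgtp2, a GTPase whose near copy Tgtp1 may share its reads, measured 48.7, 55.9, 28.2 and 95.1 CPM there and at most 7.65 in other tumors. Of 14 genes that induce interferon, 7, 6, 4 and 6 were higher and none lower, among them the endosomal receptor Tlr3 and the RNA sensor Ddx58 in all 4 comparisons, whereas the adaptor Mavs differed by at most 0.17. Nlrc5, the transactivator of MHC class I and one of 4 readouts of interferon-gamma, was 67.2, 74.9, 52.8 and 97.7 CPM in MCA943, 18.5 to 41.1 in MCA969, 20.6 to 35.5 in MCA970, 7.62 to 13.8 in MCA972 and 0.203 to 0.973 in MCA948, and all MCA948 tumors were below all others. Cd274, another readout, did not set MCA948 apart: it was 1.25 to 3.89 CPM there, 1.20 to 2.64 in MCA972 and 0.990 to 6.33 in MCA969. The last 2 readouts, Ciita and Ido1, were low in all tumors, at most 0.987 and 1.91 CPM. Of the 4 readouts, 4, 4, 3 and 3 were called higher in MCA943 than in MCA948, MCA969, MCA970 and MCA972.

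Residual leukocytes can carry interferon-stimulated transcripts too, so the markers of other cells were set beside the score. Fibroblast markers such as Col1a1 and Vim were abundant in every tumor, and their sum was 64444 to 76191 CPM in MCA943, 39532 to 50717 in MCA970 and MCA972 and 14586 to 36780 in MCA948 and MCA969. The sum of 5 endothelial markers was 54.7 to 112 CPM in MCA943, 15.7 to 313 in MCA948, 55.0 to 176 in MCA969, 251 to 454 in MCA970 and 40.0 to 102 in MCA972. Of these markers, 4 were called lower in MCA943 than in MCA970 and 1 lower than in MCA969. Ptprc, the gene of CD45, lay between 0.402 and 25.1 CPM. The sum of 20 leukocyte markers was 25.1 to 140.4 CPM in MCA943, 27.0 to 125 in MCA948, 16.8 to 56.7 in MCA969, 27.3 to 300.4 in MCA970 and 27.3 to 71.0 in MCA972. Of the 17 leukocyte markers tested, 8 were higher in MCA943 than in MCA948, 11 than in MCA969, 1 than in MCA970 and 6 than in MCA972, with 1 lower against each of MCA969 and MCA972. Ncr1, the gene of NKp46, had 0 reads in every a tumor and the tumor without a letter outside MCA943. The highest score and the highest leukocyte sum fell in different tumors. The MCA943 tumor a-R had the highest score of all 30 tumors (6.74) at a sum of 28.1 CPM. It held 61 reads of Gzmb and 22 of Cd8a. The MCA970 tumor W-1D had the highest sum (300.4 CPM) at a score of 4.14, and Lyz2 alone gave 158 CPM of that sum. Line means of Cd8a and Gzmb were highest in MCA943 (0.832 and 4.85 CPM). Those of Lyz2 and Adgre1 were highest in MCA970 (52.0 and 5.05 CPM). With the log2 leukocyte sum as a covariate, a fit chosen after the data were seen, 36, 35, 31 and 33 members were called higher in MCA943 than in MCA948, MCA969, MCA970 and MCA972, in place of 36, 34, 31 and 33. Shares of all genes called in that fit were not recorded, so these counts stand without a background. That fit adjusted for a single summed level and not for each cell type, and its counts cannot show what part leukocytes had. The parts of residual leukocytes and of endothelial cells in the score were not tested.

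**Figure D4:**
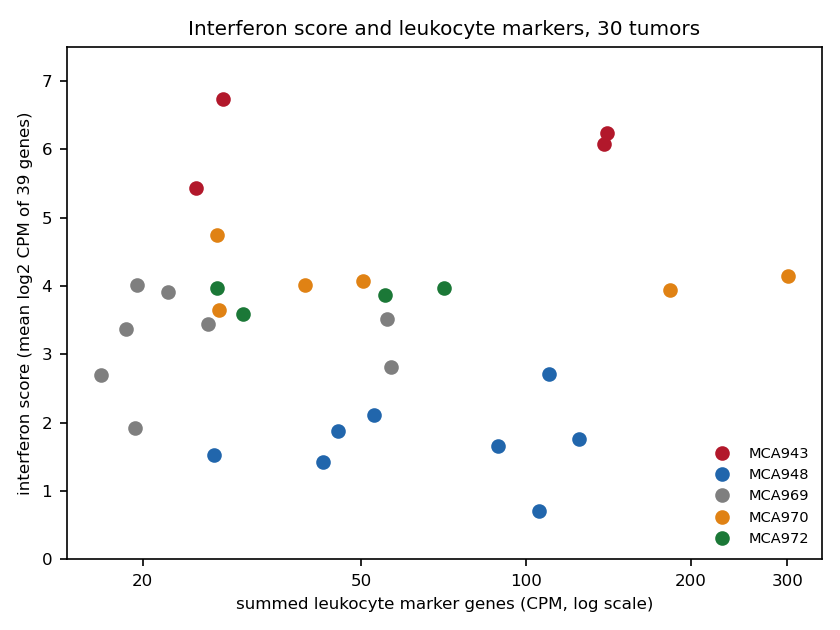
Interferon score (mean log2 CPM of 39 genes, vertical axis) against the summed CPM of leukocyte marker genes (horizontal axis, log scale) in the 30 tumors; each point is 1 tumor, coloured by line. MCA943 tumors lie above 5.4 at sums of 25.1 to 140.4 CPM, and MCA948 tumors below 2.8 over much the same range.

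Within lines, the interferon-stimulated genes rose and fell together from tumor to tumor. Taking each tumor's deviation from its line mean in log2 CPM over the 30 tumors, the mean correlation over the 741 pairs of members was 0.65 (median 0.73) and 718 pairs were above 0, whereas the mean over all pairs of tested genes was 0.00146. Members are measured in the same libraries, so these correlations are given as a description. The median standard deviation within lines was 0.68 on the log2 scale for the members and 0.27 for all genes. Gbp3, Oasl2 and Ifit3 followed the mean of the other members most closely (r = 0.98, 0.97 and 0.97). Isg20, Ifi27 and Irf1 followed it least (r = 0.05, 0.16 and 0.24), and Oas3, Oas2 and Oas1a were in between (0.68, 0.68 and 0.59). The tumors farthest from their line were MCA969 W-2D, MCA948 W-2G, MCA948 W-1D and MCA969 WR, whose scores differed from the line mean by -1.29, -1.02, 0.99 and 0.81. Outside the list, genes whose deviations followed the score most closely included Gbp5 (r = 0.97), Irgm2, Cmpk2, Ddx60, Gbp6, Ifi203, Gm12250, Olfr56 and Ddx58 (r = 0.89). Their mean levels were also highest in MCA943, such as 33.6 CPM of Gbp5 against 1.03 in MCA948 and 14.7 in MCA970, and 130 CPM of Ifi203 against 3.56 in MCA948.

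The title letters were compared within the 4 lines that carry both, over 26 tumors (12 W and 14 a), by edgeR with the line in the model and an adjusted p under 0.05 as the call. None of the 39 members was called and none had an unadjusted p under 0.05, where 0.211% of 16557 genes were called higher and 0.0604% lower in W tumors. DESeq2 and limma-voom called none either. Log2 differences of the members had a median of 0.05 (-0.01 over all genes), and the 95% intervals of the members reached no lower than -1.03 and no higher than 1.17. The smallest p was that of Parp9, at 0.18 ± 0.15 (adjusted p = 0.92), followed by Gbp2 at 0.26 ± 0.27 (adjusted p = 0.954) and Igtp at 0.25 ± 0.29 (adjusted p = 0.968). In the same fit NK cell genes were higher in W tumors: the receptor gene Ncr1 by 5.56 ± 0.61, the effector genes Prf1 by 4.12 ± 0.49, Gzmb by 3.81 ± 0.56 and Nkg7 by 3.497 ± 0.48, and Klrb1c, the gene of NK1.1, by 2.36 ± 0.39 (adjusted p from 6.16e-06 to 0.00154).

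**Figure D5:**
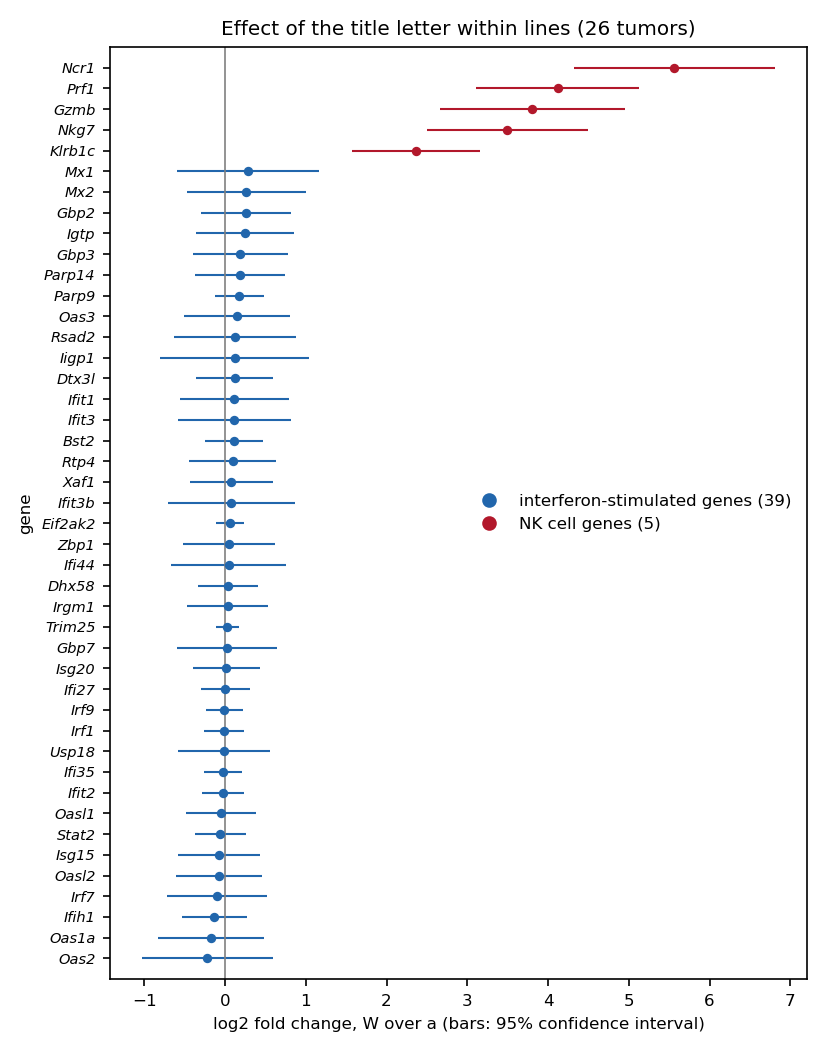
Log2 fold change of W over a tumors within lines (horizontal axis, 26 tumors) for the 39 interferon-stimulated genes (blue) and 5 NK cell genes (red); points are estimates and bars 95% confidence intervals. Every blue interval crosses 0, and every red one lies above it.

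Line by line, the median log2 difference of the members was -0.22 in MCA943, where a single W tumor stands against 3, 0.09 in MCA948, -0.16 in MCA969 and 0.36 in MCA970. Over all genes these medians were -0.03, -0.01, 0.01 and -0.03. In MCA970 the W tumor W-2D had a score of 4.75, the other W tumors 4.14 and 3.94, and the a tumors 3.65 to 4.07. Without W-2D, the median of the members over the 4 lines together was -0.03 in place of 0.05. No member was called by edgeR within any line and none had an unadjusted p under 0.05, but few genes of any kind were called there: 0 in MCA943, 83 in MCA948, 4 in MCA969 and 27 in MCA970. Mean scores of W and a tumors were 4.28 and 3.91 in MCA970, 1.68 and 1.76 in MCA948, and 3.02 and 3.40 in MCA969, and in each of these lines the ranges of the 2 letters overlapped. A letter effect that differs between lines was called for no member (smallest adjusted p = 0.603, no unadjusted p under 0.05) and for 0.0181% of all genes.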

How the data were processed

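Tumors from 5 MCA-induced mouse sarcoma lines (30 samples) were sequenced as bulk RNA after CD45+ cells had been removed. The deposited table holds raw counts per gene, which the authors made with STAR 2.5.3a and featureCounts 1.5.2 on GRCm38, as named in the submitters' processing notes; per the file headers, whose column names carry the tags umi and rmdup, molecular identifiers were used and duplicates removed before counting. The strand setting was not given in the sources used here, so 16 members that overlap another gene, and near copies such as Ifit3 and Ifit3b, may share reads. Each column was matched to a sample by name, and 0 columns were left out.

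From these counts, genes were kept by filterByExpr and tested with edgeR 4.0.16 (limma 3.58.1, R 4.3.3; TMM, quasi-likelihood, Benjamini-Hochberg) in 1 model over all 30 tumors with the line as factor, or over 26 tumors with line and title letter. Library totals ran from 27745104 to 46537062 counts, the biological coefficient of variation was 0.221, and floors are 3 counts and cover counting error only. Levels are CPM and log2 CPM with a prior count of 2. p-values measure the spread between tumors of 1 line each. The scripts were tested on simulated data.

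The members and gene lists were chosen with earlier results of these data known. Members are accounted for by role, and tumor values are given for all signalling factors and the widest and narrowest in range of each other role. Up to 2 of the largest called changes in each direction are named for each comparison. Tumor values of Oas1a, Oas3, Igtp, Isg15, Bst2, Ifi27, Rsad2 and Oasl2 were added after their values were seen. One gene of the signalling list is not reported here. Alternatives were DESeq2 1.42.0, limma-voom, other filters and thresholds, library sets, the animal code as a block and leaving out each tumor. Upstream sequences were RefSeq's, and column matching used GENCODE names.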

Additional observations from a re-analysis of the deposited data

Results flagged for a closer look

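Of 85 groups of 4 to 8 tumors (the interferon score and 16 members, being the signalling factors and the widest and narrowest of each role, in 5 lines), 7 held a tumor far from its neighbours, with a gap to the nearest tumor that was large against the whole range of the line. The limits used flag about 5% of groups by chance when groups are independent and values normally distributed. Here the groups shared tumors and members that rose and fell together, and CPM need not be normal. The 7 can therefore not be set against that 5%. The MCA970 tumor W-2D was the highest of its line in 4 of them: Iigp1 (59.4 CPM, next 18.2, gap 0.818 of the range), Ifit2 (47.7, next 32.1, 0.814), Eif2ak2 (57.3, next 44.3, 0.704) and Irf7 (30.1, next 20.01, 0.668). It had the highest interferon score of MCA970 (4.75), a leukocyte marker sum of 27.3 CPM, the lowest of its line, and 3 reads of Ifng. The MCA948 tumor W-1D was the highest of its line for Ifit3b (3.42 CPM, next 1.25, 0.648) and Oasl1 (3.97, next 2.16, 0.597), with a leukocyte marker sum of 110.02 CPM and 43 reads of Ncr1. The MCA969 tumor W-2G was the lowest of its line for Trim25 (56.6 CPM, next 71.03, 0.707). The part of leukocytes or of library preparation in these values was not tested.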

How the results depend on the processing

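Of 382 values recomputed under other settings, 365 kept their direction and side of the threshold (counts within 1.5 times) and 0 reversed. Only fold changes, and not counts, could be labelled reversed, here and with 1 tumor left out. Those between lines were the largest called changes of each comparison, so a reversal was unlikely from the start. The values that did not stay the same lay among the middle lines and with the library sets. For MCA969 against MCA972 the 5 called members became 9 with limma-voom, 14 without the fold threshold, 2 with the library sets as a covariate, 2 without the MCA969 tumors labelled sensitive and 3 within the first set. For MCA970 against MCA972 the 4 became 7 without the fold threshold and 0 with the animal code as a replicate block. The library covariate gave 15 for MCA943 against MCA970, 11 for MCA948 against MCA969 (10 within the second set) and 16 for MCA948 against MCA972; the cause was not tested. Irf7 in MCA970 against MCA972 missed the threshold without the low-count filter (adjusted p = 0.0714). Deviations of same-code tumors of different lines had a median r of 0.025 (29 pairs, r from -0.43 to 0.41, 8 above 0.1). The median for different codes was -0.007. These correlations cannot show whether a code marks something shared between tumors. With the animal code as a block the counts were 36, 35, 32 and 31 for MCA943 against MCA948, MCA969, MCA970 and MCA972, and 0 for the title letter. With 1 tumor left out, 1050 of 1064 values kept their call and 0 reversed: the counts ran from 36 to 37, 34 to 35, 29 to 32 and 32 to 34 for MCA943, 26 to 30, 32 to 33 and 32 to 33 for MCA948 against MCA969, MCA970 and MCA972, 10 to 17 for MCA969 against MCA970, 3 to 7 for MCA969 against MCA972 (3 without MCA972 a-1G or a-R) and 1 to 5 for MCA970 against MCA972 (1 without MCA972 a-1 or 2G, 2 without MCA970 W-2D, MCA943 W-2G or a-1D). The 10 for MCA969 against MCA970 came without MCA970 W-2D. Over the 5 lines 38 to 39 were called, and 0 by letter or in all 6 class comparisons. Depth limits Oas1a, Oas2 and Oas3 in MCA948, at 0 to 18 reads a tumor. Other members also had few reads in some MCA948 tumors. Reads a tumor were 5 to 80 for Iigp1, 3 to 69 for Usp18, 4 to 46 for Mx1 and 2 to 49 for Mx2. They were 2 to 137 for Ifit3b, 7 to 205 for Ifi44 and 9 to 135 for Igtp.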
